A study of Mus musculus with 9 samples.

Results

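Respiratory complex I is the NADH dehydrogenase of the mitochondrial inner membrane, and its transcripts were followed here in Pan02 cells, a mouse pancreatic adenocarcinoma line. The genes were chosen by symbol alone: every gene named Ndufa, Ndufb, Ndufc, Ndufs or Ndufv with a number, Ndufab1, every gene named Ndufaf with a number, and Nubpl, Acad9, Ecsit, Timmdc1, Tmem126b and Foxred1. This gave 52 of the 19505 genes with a named probe set on the arrays, and each of the 52 had 1 probe set.

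The cells were 4 transduced lines that all descend from Pan02 and all passed puromycin selection: Pan02OE, which carries a lentiviral open reading frame of mouse Nlrx1, Pan02OE-CTL, which carries the control particles of that system, Pan02KD, which carries a lentiviral shRNA against Nlrx1, and Pan02KD-CTL, which carries a scrambled shRNA. Each line was cultured for 24 hours with a low dose of H2O2 or in normal medium, and 1 Clariom S mouse array was run for each line and medium, which makes 8 arrays. Each line is 1 transduced population and the knockdown rests on 1 shRNA sequence, so the p-values below cover the spread of these 8 arrays and say nothing of how independent transductions would vary. The number of arrays limits the precision, and in RNA from whole cultures fewer cells with a transcript and less transcript per cell cannot be told apart.

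Nlrx1, which encodes a mitochondrial member of the NOD-like receptor family, checks the labels. It read 17.31 with and 17.1 without H2O2 in Pan02OE, against 6.9 with and 6.89 without H2O2 in Pan02OE-CTL (log2 signal). In the line labelled Pan02KD it read 6.56 with and 6.68 without H2O2, against 6.4 with and 5.96 without H2O2 in Pan02KD-CTL. All 4 knockdown-system values lie within the 3.4 to 7.48 of the 23 background probe sets, which match no genome, and the line labelled Pan02KD was not the lower one, so the arrays show the overexpression and do not show the knockdown. Signals in the background range cannot measure a fall. The authors checked the lines by western blot for NLRX1 protein, which the arrays do not measure. Krt8, Krt18, Krt19 and Cdh1, epithelial genes, were above background on all 8 arrays, whereas Epcam (4.38 to 4.79) was not, nor were the acinar, islet, hematopoietic and collagen markers measured. Both modified lines differed from their controls in some of these. Cdh1 read 10.94 with and 10.59 without H2O2 in Pan02OE, against 8.32 with and 8.95 without H2O2 in Pan02OE-CTL, and 10.52 with and 10.62 without H2O2 in the line labelled Pan02KD, against 8.28 with and 8.12 without H2O2 in Pan02KD-CTL. In Pan02OE, Krt19 (14.54 with and 14.56 without H2O2, against 12.92 and 13.04 in Pan02OE-CTL) and Krt8 (15.02 and 14.91, against 13.92 and 13.58) were also higher. In Pan02KD, Krt19 was lower (9.54 with and 9.71 without H2O2, against 12.04 and 12.53 in Pan02KD-CTL), and the fibroblast gene Dcn read 10.74 with and 10.2 without H2O2, against 4.63 to 5.52 on the other 6 arrays. The part of these differences in the results below was not tested.

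Complex I passes electrons from NADH to ubiquinone and pumps protons. Its peripheral arm holds the N module, where NADH is oxidized, and the Q module, where ubiquinone is reduced, and its membrane arm has a proximal and a distal part. The catalytic centers sit in core subunits, encoded partly in the nucleus and partly in mitochondrial DNA, and a shell of accessory subunits surrounds them. Assembly factors, among them the MCIA complex that builds the membrane arm, modify, insert and join the parts and then leave. The 52 genes divide into 8 of the N module, 7 of the Q module, 9 of the proximal and 11 of the distal membrane arm, 5 of the MCIA complex, 9 other assembly factors and 3 that match by symbol only. Those 3 are Ndufa4, now counted with complex IV, its relative Ndufa4l2, and Ndufb4b, a near copy of Ndufb4. Ndufb1 and the mitochondrially encoded subunits were not analysed here.

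Complex I transcripts were among the brighter ones of these cells. The median member level over the 8 arrays was 11.78, compared with 6.54 over all named genes, and 46 of the 52 were above the brightest background probe set on every array. Ndufv3, a small N-module subunit, stayed at 6.08 to 7.13 and Ndufa4l2 at 4.08 to 4.48, so both were within the background range throughout. The highest mean was that of Ndufb9, a distal-arm subunit, at 15.5, although the brightness of different probe sets also depends on the probes. The difference between the highest and lowest array had a median of 0.83 log2 units over members, compared with 0.72 over all genes and 0.9 over the 8787 genes with a line mean above background. It exceeded 1 unit for 16 of 52 members (30.8%), compared with 25.8% of all genes and 42.4% of those above background.

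**Figure D1:**
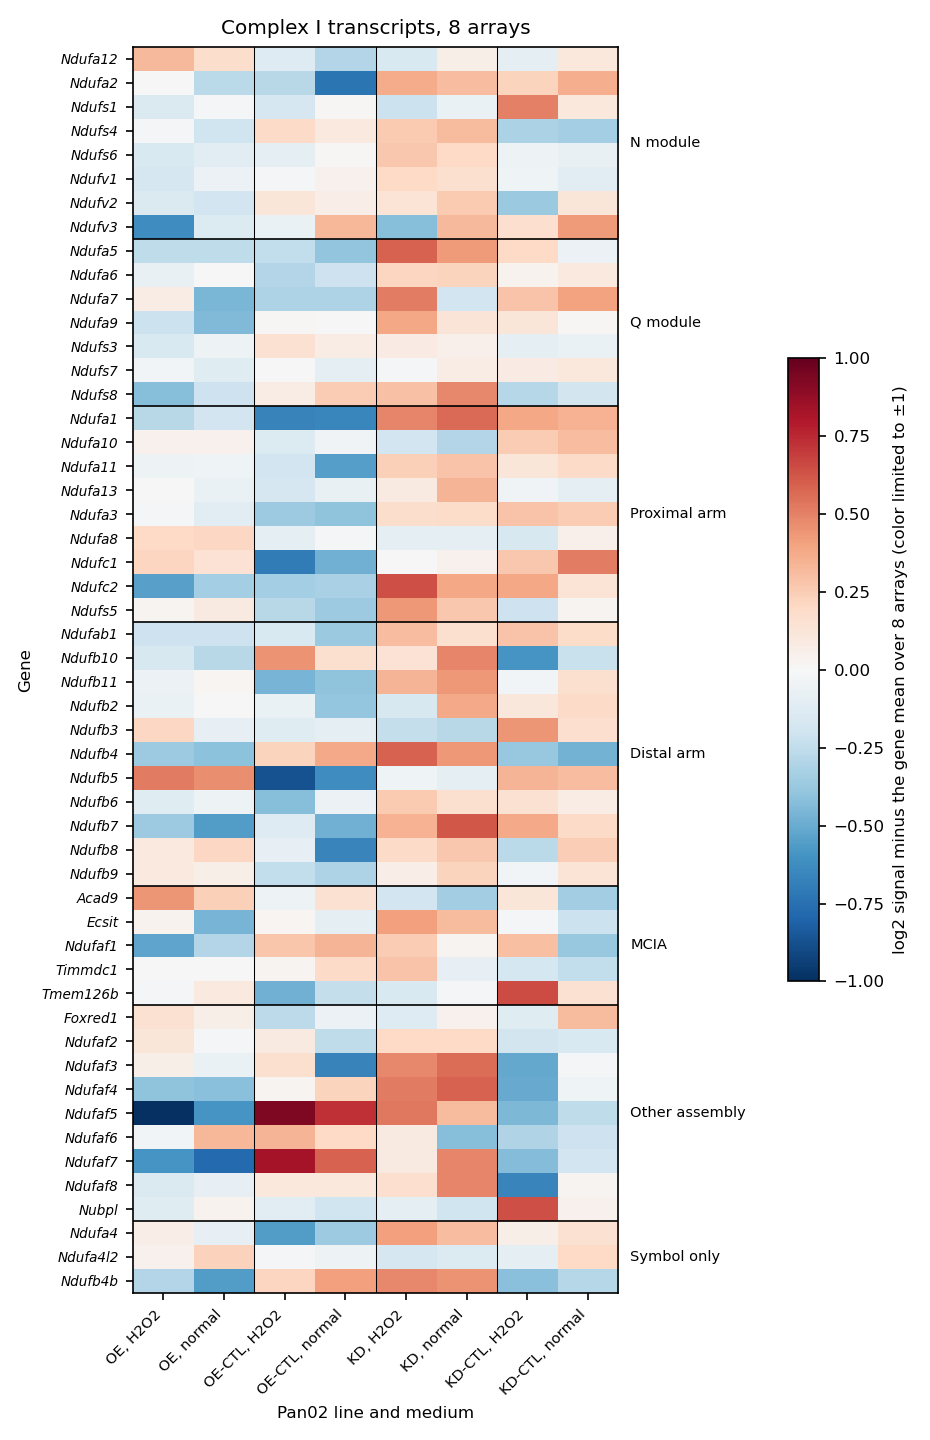
Heat map of the 52 genes (rows, grouped by module) on the 8 arrays (columns, Pan02 line and medium), colored by log2 signal minus the gene's own mean over the 8 arrays. The widest spans are those of Ndufaf5 (2.15 log2 units) and Ndufaf7 (1.61), while most rows stay pale and the core subunit Ndufs7 spans only 0.23 log2 units.

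The nuclear core subunits were the steadiest group. Over the 8 arrays Ndufs7, which carries the iron-sulfur cluster next to the ubiquinone site, read 12.56 to 12.79 and Ndufs3 read 12.76 to 13.06. Ndufv1, the subunit that binds NADH and FMN, read 13.25 to 13.62, and its partner Ndufv2 read 12.25 to 12.88. Ndufs1, the large iron-sulfur subunit of the N module, read 10.48 to 11.2, its highest value being the Pan02KD-CTL array with H2O2. The widest was Ndufs8, an iron-sulfur subunit of the Q module, at 13.52 to 14.43. The median range of these 6 genes was 0.5 log2 units, compared with 0.87 for the 14 assembly factors, among which Ndufaf5 had the widest range of all members at 2.15. The groups also differ in brightness, with median levels of 12.8 for the core subunits and 8.55 for the assembly factors. The part of brightness in their ranges was not tested.

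The first comparison asked what differed in the cells that overexpress Nlrx1. Pan02OE cells differed from Pan02OE-CTL cells in few complex I transcripts: the assembly factors Ndufaf5 and Ndufaf7 were the most reduced, the accessory subunit Ndufb5 rose, and Ndufc1, Ndufb4 and its copy Ndufb4b moved by smaller amounts. In all, 2 members were higher and 4 lower at an adjusted p under 0.05 (limma over all 8 arrays with medium as a term, Benjamini-Hochberg over 19505 genes). That is 11.5% of the members, compared with 16.5% of all genes (7.02% higher and 9.49% lower) and 31.4% of the genes with a line mean above background. The median difference over members was 0.1 log2 units, and 0.04 over all genes.

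Ndufaf5 encodes the methyltransferase-like factor that, in human cells, hydroxylates an arginine of NDUFS7. It read 7.95 with and 8.58 without H2O2 in Pan02OE, against 10.1 with and 9.9 without H2O2 in Pan02OE-CTL. Both Pan02OE arrays lie well below both control arrays. The difference was −1.73 log2 units (SE 0.22, limma adjusted p = 0.00063), or 3.33-fold lower, and was larger with H2O2 (−2.15) than without (−1.32), each of these from 1 array per line.

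Ndufaf7 encodes a mitochondrial arginine methyltransferase needed for the assembly of complex I. It read 7.18 with and 6.99 without H2O2 in Pan02OE, against 8.6 with and 8.36 without H2O2 in Pan02OE-CTL. Both Pan02OE values lie under the brightest background probe set at 7.48, so the difference of −1.39 log2 units (SE 0.19, limma adjusted p = 0.0012) is a lower bound on the fall. Both methyltransferase-type factors therefore stood lower in the same line, each in both media.

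Ndufb5, an accessory subunit of the distal membrane arm, read 12.8 with and 12.75 without H2O2 in Pan02OE, against 11.41 with and 11.66 without H2O2 in Pan02OE-CTL. It rose by 1.25 log2 units (SE 0.16, limma adjusted p = 0.00067), or 2.37-fold, the largest rise among the members in this comparison. Ndufc1, a small subunit of the proximal arm, read 14.53 with and 14.46 without H2O2 in Pan02OE, against 13.62 with and 13.84 without H2O2 in Pan02OE-CTL, a rise of 0.77 (SE 0.16, limma adjusted p = 0.0088). The arrays of the lines did not overlap for either gene. The call for Ndufc1 was lost without either H2O2 array of these lines (highest adjusted p 0.098), while those for Ndufaf5, Ndufaf7 and Ndufb5 held without any single array.

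The windows around the transcription starts of Ndufaf5, Ndufb5 and Ndufc1 are shown because Ndufaf5 fell most and Ndufb5 and Ndufc1 were the only members called higher between the same lines. RefSeq (build GRCm38.p6) gave a window of 250 bases before and 50 bases after the start for 46 of the 52 genes. Each window was searched on both strands for GCATGCGC (the word of the factor NRF1), CCGGAAGT (ETS factors such as GABP), CAAGGTCA (estrogen-related receptors) and AAGATGGC (YY1), whose products are known regulators of nuclear genes for the respiratory chain. Capitals mark a match.
Ndufaf5 (chr2:140170396-140170695, plus strand): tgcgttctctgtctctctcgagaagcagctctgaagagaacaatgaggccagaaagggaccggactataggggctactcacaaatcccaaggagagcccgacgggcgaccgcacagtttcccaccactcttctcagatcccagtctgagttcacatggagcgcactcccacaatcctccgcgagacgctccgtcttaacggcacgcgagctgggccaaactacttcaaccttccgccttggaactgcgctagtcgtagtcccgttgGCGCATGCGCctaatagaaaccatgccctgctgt
Ndufb5 (chr3:32736813-32737112, plus strand): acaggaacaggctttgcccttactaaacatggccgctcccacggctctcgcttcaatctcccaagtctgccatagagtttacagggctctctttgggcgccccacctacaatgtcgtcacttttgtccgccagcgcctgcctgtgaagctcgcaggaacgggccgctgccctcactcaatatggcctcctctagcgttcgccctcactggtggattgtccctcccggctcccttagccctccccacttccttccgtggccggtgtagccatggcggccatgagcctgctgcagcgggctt
Ndufc1 (chr3:51408906-51409205, minus strand): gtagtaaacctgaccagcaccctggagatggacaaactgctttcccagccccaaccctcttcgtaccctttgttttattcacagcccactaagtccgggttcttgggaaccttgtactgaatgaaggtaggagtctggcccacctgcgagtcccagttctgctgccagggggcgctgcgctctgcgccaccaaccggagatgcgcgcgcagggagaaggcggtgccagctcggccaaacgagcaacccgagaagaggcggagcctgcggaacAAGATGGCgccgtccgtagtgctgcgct
The NRF1 word occurs on both strands of the Ndufaf5 window, where its copies overlap to form the capital run just after the start. The YY1 word of Ndufc1 also lies just after the start, and the windows of Ndufb5 and of Ndufaf7, which is not printed, hold none of the 4 words.

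Over the 46 windows the YY1 word was found in 9 (19.6%), compared with 3.19% of the windows of 27025 genes. The NRF1 word was in 5 (10.9%, compared with 3.05%), the ETS word in 2 (4.35%, compared with 4.31%) and the word of the estrogen-related receptors in 1 (2.17%, compared with 1.76%). The NRF1 word was in the windows of Ndufa6, Ndufa8, Ndufa11, Ndufaf4 and Ndufaf5, and of these Ndufaf5 was called lower in Pan02OE while the other 4 were not called. The YY1 word was in the windows of Ndufa3, Ndufa9, Ndufaf8, Ndufb8, Ndufc1, Ndufs4, Ndufs6, Ndufs7 and Tmem126b. A word in a window is a description of these letters and is not evidence of binding.

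Ndufaf5 and Ndufb5 each have a neighbor that starts close by on the opposite strand. The start of Esf1, a gene of ribosome biogenesis, lies 88 bases from that of Ndufaf5, so the window printed above reaches across both starts. Esf1 read 11.69 with and 11.56 without H2O2 in Pan02OE, against 11.6 with and 11.55 without H2O2 in Pan02OE-CTL, a difference of 0.05 (SE 0.15, limma adjusted p = 0.88), beside the fall of Ndufaf5. The start of Mrpl47, a protein of the mitochondrial ribosome, lies 308 bases from that of Ndufb5. Mrpl47 read 10.9 with and 10.51 without H2O2 in Pan02OE, against 9.51 with and 9.88 without H2O2 in Pan02OE-CTL, a rise of 1.01 (SE 0.2, limma adjusted p = 0.0069), beside the rise of Ndufb5.

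Ndufb4, an accessory subunit of the distal arm, read 13.84 with and 13.79 without H2O2 in Pan02OE, against 14.42 with and 14.58 without H2O2 in Pan02OE-CTL, a difference of −0.68 (SE 0.15, limma adjusted p = 0.015). Ndufb4b read 13.97 with and 13.7 without H2O2 in Pan02OE, against 14.48 with and 14.67 without H2O2 in Pan02OE-CTL, a difference of −0.75 (SE 0.17, limma adjusted p = 0.014). The signals of these genes differed by only 0.02 to 0.25 log2 units on any array. The stretches below, from RefSeq on GRCm38.p6, are shown because both start regions share the capital run of 26 bases. The Ndufb4b window ends at the last base of the run, so the shared stretch may be longer. A probe against one copy may also read the other.
Ndufb4 (chr16:37654324-37654389, minus strand): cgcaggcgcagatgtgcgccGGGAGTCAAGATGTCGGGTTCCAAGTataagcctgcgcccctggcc
Ndufb4b (chr19:25033112-25033157, plus strand): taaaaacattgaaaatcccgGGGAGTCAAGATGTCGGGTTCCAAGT
Their values are therefore uncertain as measures of separate genes. The counts given here take them as 2 genes; with the pair as 1 signal, 3 members were lower in Pan02OE, 6 higher in Pan02KD over Pan02KD-CTL and 4 lower in Pan02KD-CTL over Pan02OE-CTL. The call was lost without either normal-medium array of these lines for both genes, and for Ndufb4 also without the Pan02OE array with H2O2 (adjusted p up to 0.15).

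**Figure D2:**
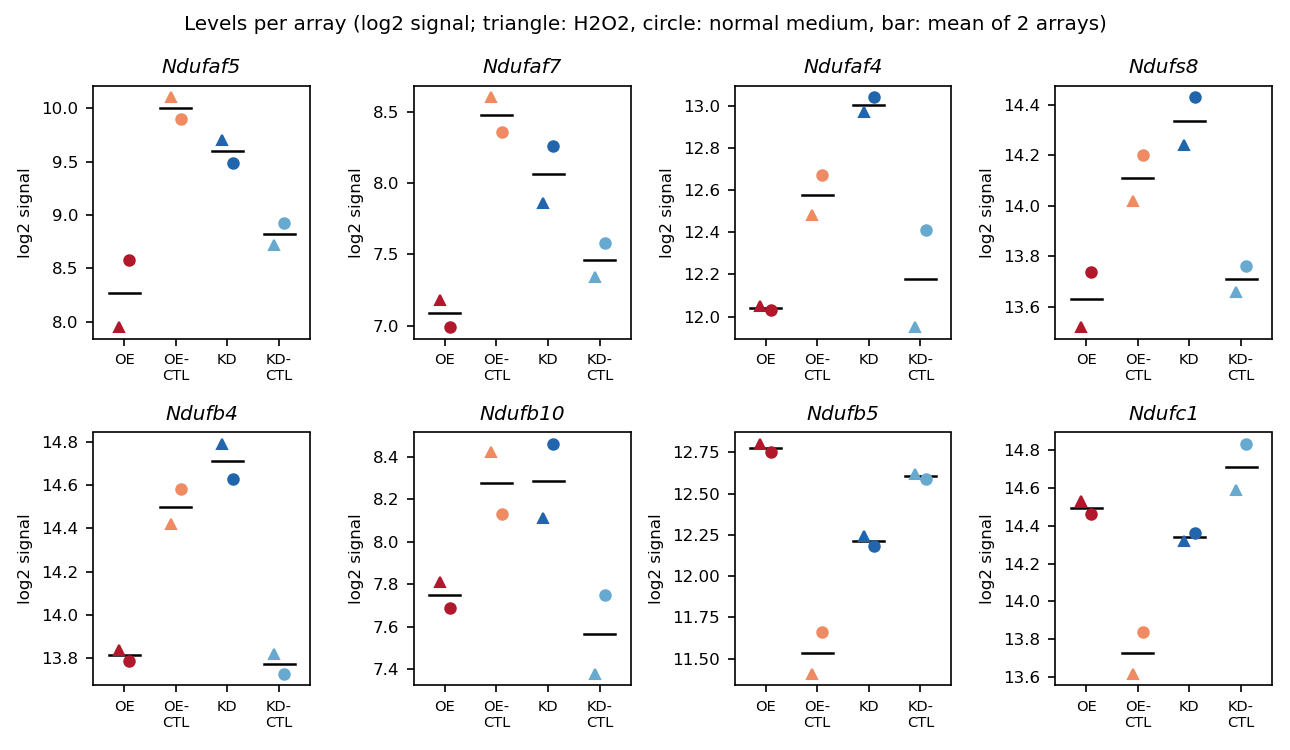
Log2 signal of 8 complex I genes in the 4 Pan02 lines (x axis, OE left of OE-CTL and KD left of KD-CTL), with a triangle for the array with H2O2, a circle for the array in normal medium and a bar for their mean; each panel has its own y axis. Ndufaf5, Ndufaf7, Ndufaf4, Ndufs8, Ndufb4 and Ndufb10 are low in OE and KD-CTL, and Ndufb5 and Ndufc1 are lowest in OE-CTL.

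By module, the proximal membrane arm had the highest median difference between Pan02OE and Pan02OE-CTL, at 0.32. Of its 9 genes 8 were positive, as were 10706 of all 19505 genes, and 1 was called (11.1%). The distal arm had a median of 0.17, with Ndufb5 called higher and Ndufb4 called lower (18.2%). Over all genes 16.5% were called, and 31.4% of those with a line mean above background. None of the 8 N-module, 7 Q-module or 5 MCIA genes passed the test. The 6 core subunits ranged from no difference for Ndufs1 (adjusted p = 1) to −0.47 for Ndufs8 (SE 0.15, adjusted p = 0.056). Ndufaf1 of the MCIA complex (−0.72, SE 0.22, adjusted p = 0.051), which was in the background range in Pan02OE, and Ndufaf4 (−0.54, SE 0.17, adjusted p = 0.058) were just outside the threshold. Before adjustment, 18 of the 52 (34.6%) had p under 0.05, compared with 28% of all genes and 47.8% of those with a line mean above background.

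The second comparison set the line labelled Pan02KD against its scrambled control. The near-copy pair Ndufb4 and Ndufb4b, the assembly factors Ndufaf4 and Ndufaf5, and the subunits Ndufb10, Ndufs8 and Ndufs4 were higher in the arrays labelled Pan02KD, and Ndufb3 and Ndufa10 were lower. These 7 higher and 2 lower genes are 17.3% of the members, compared with 13.6% of all genes (7.59% higher and 5.97% lower) and 26.3% of those with a line mean above background (limma, Benjamini-Hochberg over 19505 genes). The median difference over members was 0.17 log2 units, while over all genes it was near 0. Every call but that of Ndufb4 was lost without the Pan02KD array in normal medium or without the Pan02KD-CTL array with H2O2, and all 9 were lost without the Pan02KD array with H2O2.

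Ndufb4 read 14.79 with and 14.63 without H2O2 in the arrays labelled Pan02KD, against 13.82 with and 13.73 without H2O2 in Pan02KD-CTL, a rise of 0.94 (SE 0.15, limma adjusted p = 0.004). Ndufb4b read 14.74 with and 14.71 without H2O2 in Pan02KD, against 13.84 with and 13.98 without H2O2 in Pan02KD-CTL, a rise of 0.82 (SE 0.17, limma adjusted p = 0.011). Again the pair moved together, and the arrays of the lines did not overlap.

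Among the assembly factors, Ndufaf4, which acts with Ndufaf3 early in the building of the Q module, read 12.97 with and 13.04 without H2O2 in the arrays labelled Pan02KD, against 11.95 with and 12.41 without H2O2 in Pan02KD-CTL. It rose by 0.83 (SE 0.17, limma adjusted p = 0.011). Ndufaf5 read 9.7 with and 9.49 without H2O2 in Pan02KD, against 8.72 with and 8.92 without H2O2 in Pan02KD-CTL, a rise of 0.77 (SE 0.22, limma adjusted p = 0.044). Ndufaf5 was the one gene outside the near-copy pair called in both comparisons, lower in Pan02OE and higher in the line labelled Pan02KD. Its neighbor Esf1 was lower in Pan02KD, by −0.85 (SE 0.15, limma adjusted p = 0.0053). Ndufaf7 read 7.86 with and 8.26 without H2O2 in Pan02KD, against 7.34 with and 7.58 without H2O2 in Pan02KD-CTL, whose mean lies in the background range, and its difference of 0.6 did not pass the test (SE 0.19, adjusted p = 0.076).

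Further assembly factors had positive differences that did not pass, among them Ndufaf3 (0.77, SE 0.27, limma adjusted p = 0.097) and Ndufaf8, which partners Ndufaf5 in human cells (0.65, SE 0.19, limma adjusted p = 0.056). The 9 assembly factors outside the MCIA complex had a median difference of 0.6, with 2 called (22.2%, compared with 13.6% of all genes and 26.3% of those above background). Unadjusted p was under 0.05 for 7 of them (77.8%, compared with 25.8% of all genes and 43.7% of those above background). These include Nubpl, which was lower (−0.48, SE 0.19, limma adjusted p = 0.15). In all, 7 of the 9 differences were positive and 2 negative, the other negative one being Foxred1 (−0.14). The 5 MCIA genes had a median of 0.18 and none called. No test compared these groups.

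Of the subunits, Ndufs8 read 14.24 with and 14.43 without H2O2 in the arrays labelled Pan02KD, against 13.66 with and 13.76 without H2O2 in Pan02KD-CTL, a rise of 0.63 (SE 0.15, limma adjusted p = 0.02), and it was the only core subunit called in the line comparisons. Ndufs4, an accessory subunit that holds the N module in place, read 12.62 with and 12.68 without H2O2 in Pan02KD, against 12.04 with and 12.02 without H2O2 in Pan02KD-CTL, a rise of 0.62 (SE 0.15, limma adjusted p = 0.025). These N- and Q-module genes are bright, and their differences were about the size of those in Ndufb10. Ndufb10, a distal-arm subunit, read 8.11 with and 8.46 without H2O2 in Pan02KD, against 7.38 with and 7.75 without H2O2 in Pan02KD-CTL, a rise of 0.72 (SE 0.2, limma adjusted p = 0.041). The lowest of these values lies in the background range, and the call was lost with cyclic loess scaling.

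The lower genes were Ndufb3 and Ndufa10. Ndufb3, a small distal-arm subunit, read 8.69 with and 8.65 without H2O2 in the arrays labelled Pan02KD, against 9.37 with and 9.1 without H2O2 in Pan02KD-CTL, a difference of −0.56 (SE 0.16, limma adjusted p = 0.046). Ndufa10, a proximal-arm subunit with the fold of a nucleoside kinase, read 12.59 with and 12.49 without H2O2 in Pan02KD, against 13.04 with and 13.09 without H2O2 in Pan02KD-CTL, a difference of −0.53 (SE 0.15, limma adjusted p = 0.045). Both stand just inside the threshold, and both calls were lost without any 1 of the 8 arrays. The lower Krt19 and the higher Cdh1 and Dcn of the line labelled Pan02KD, given above, move with all of these differences.

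**Figure D3:**
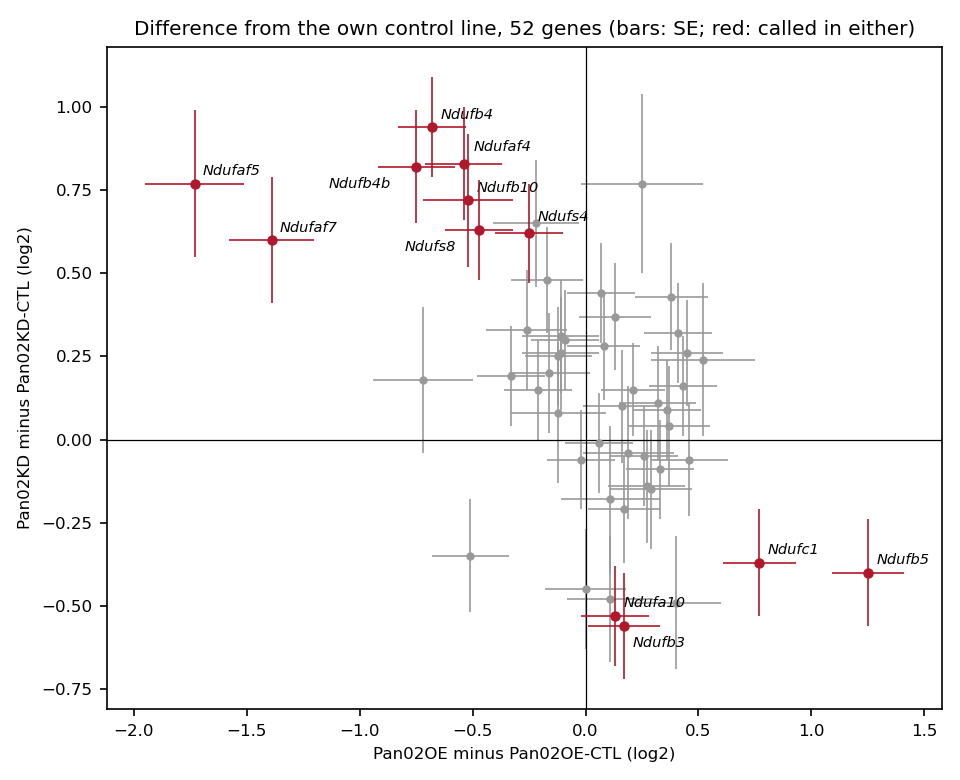
Each point is 1 of the 52 genes, with the Pan02OE minus Pan02OE-CTL difference on the x axis and the Pan02KD minus Pan02KD-CTL difference on the y axis (log2 units; bars are the SE of the fit; red marks genes called in either comparison). Ndufaf5 lies at −1.73 and 0.77 and Ndufb5 at 1.25 and −0.4, and 35 of the 52 genes lie in the upper left or lower right quadrant.

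The differences of Pan02OE and of the line labelled Pan02KD from their own controls had opposite signs for 35 of the 52 genes (67.3%), a share between the 63.2% of all genes and the 71.1% of genes with a line mean above background. Across the members the Pearson r of these differences was −0.57, and −0.62 across all genes, as a description over genes that share the 8 arrays. Ndufb5 and Ndufc1, both higher in Pan02OE, gave −0.4 (SE 0.16, limma adjusted p = 0.14) and −0.37 (SE 0.16, limma adjusted p = 0.17) in Pan02KD and did not pass there. A limma contrast of the comparisons, the Pan02OE difference minus the Pan02KD difference, was called for 12 members (23.1%, compared with 22.3% of all genes, 9.99% positive and 12.3% negative, and 41.6% of those with a line mean above background). Of these 3 were positive and 9 negative (8 with the near-copy pair as 1 signal), and the widest were Ndufaf5 (−2.51, SE 0.3, limma adjusted p = 0.00034) and Ndufb5 (1.64, SE 0.22, limma adjusted p = 0.00062).

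The control lines were compared because they differ in vector system. Pan02KD-CTL cells had 9 members higher and 5 lower than Pan02OE-CTL cells, which is 26.9% of the members, compared with 16.9% of all genes (7.64% higher and 9.28% lower) and 32% of those with a line mean above background (limma, Benjamini-Hochberg over 19505 genes). More members were called here than in either comparison with a modified line, and each of those comparisons shares a control line with this one. Ndufb5 was 1.07 higher in Pan02KD-CTL (SE 0.16, adjusted p = 0.0014) and Ndufc1 was 0.98 higher (SE 0.16, adjusted p = 0.0023), while Ndufaf5 was lower by −1.18 (SE 0.22, adjusted p = 0.005), Ndufaf7 by −1.02 (SE 0.19, adjusted p = 0.0062; a bound, since Pan02KD-CTL averaged 7.46), Ndufb4 by −0.72, Ndufb10 by −0.71 and Ndufb4b by −0.67. Of these genes, Ndufb5 and Ndufc1 were called without any single array. The call of Ndufb10 was lost with cyclic loess scaling and without either H2O2 array of the control lines (−0.96 to −0.47 without 1 array, adjusted p up to 0.31). Pan02OE-CTL was the line with the highest Ndufaf5 and Ndufaf7 and the lowest Ndufb5 and Ndufc1 of the 4.

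Other genes separated the control lines without a call in the first comparisons. Ndufa1, a proximal-arm subunit encoded on the X chromosome, read 11.13 with and 11.09 without H2O2 in Pan02KD-CTL, against 10.07 with and 10.09 without H2O2 in Pan02OE-CTL, a difference of 1.03 (SE 0.15, limma adjusted p = 0.0012). Ndufa2, an N-module subunit, read 12.59 with and 12.73 without H2O2 in Pan02KD-CTL, against 12.09 with and 11.64 without H2O2 in Pan02OE-CTL, a difference of 0.8 (SE 0.18, limma adjusted p = 0.013). Ndufa3, also of the proximal arm, read 13.84 with and 13.81 without H2O2 in Pan02KD-CTL, against 13.19 with and 13.15 without H2O2 in Pan02OE-CTL, a difference of 0.66 (SE 0.15, limma adjusted p = 0.013). The remaining higher genes were the MCIA factor Tmem126b, which read 10.53 with and 10.03 without H2O2 in Pan02KD-CTL, against 9.4 with and 9.64 without H2O2 in Pan02OE-CTL (0.77, SE 0.2, limma adjusted p = 0.028), and Ndufc2, Ndufa4 and Ndufb11, with differences of 0.59, 0.56 and 0.5. Tmem126b lost its call without either Pan02OE-CTL array or without the Pan02KD-CTL array with H2O2, and its difference was 0.43 to 1.1 without 1 array (adjusted p up to 0.23). The proximal arm had a median difference of 0.52, with 4 of 9 called higher (44.4%, compared with 7.64% of all genes called higher). In either direction, 16.9% of all genes and 32% of those with a line mean above background were called. The distal arm had a median of 0.38, while the assembly factors outside the MCIA complex had −0.4. Without the Pan02OE-CTL array in normal medium 3 higher and 3 lower calls were made, without the Pan02OE-CTL array with H2O2 4 and 1, and without the Pan02KD-CTL array with H2O2 4 and 2.

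**Figure D4:**
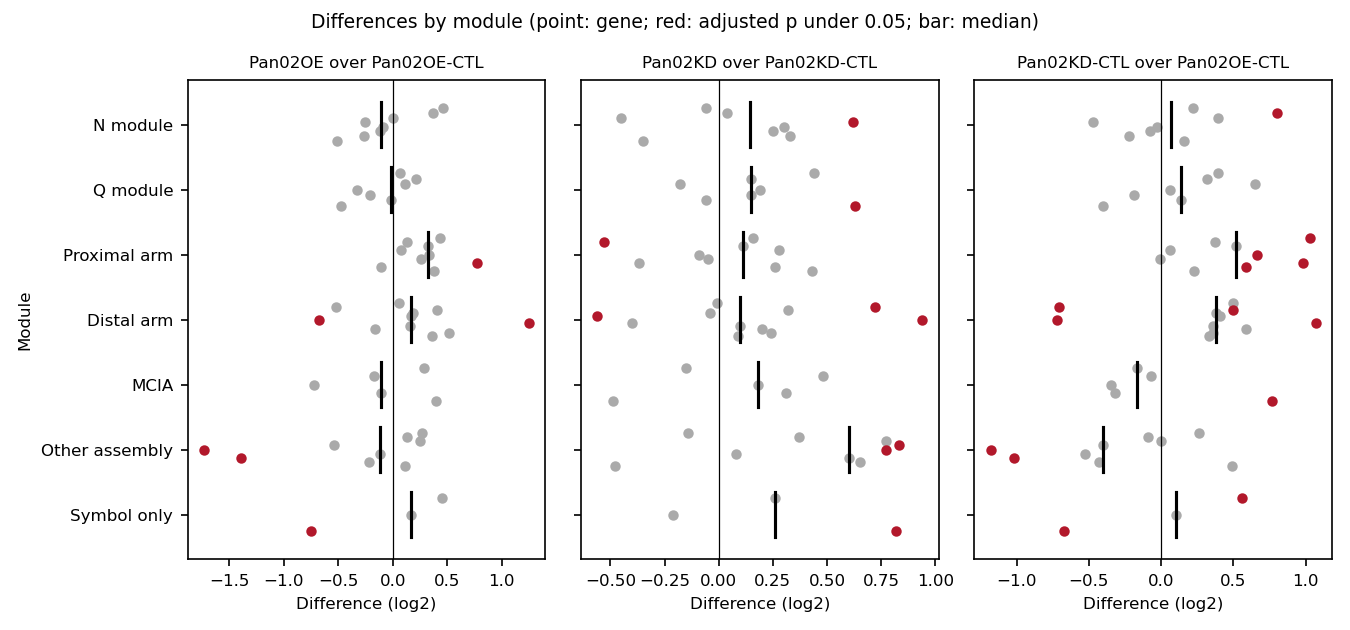
Differences in log2 units (x axis) for the genes of each module (rows) in the 3 comparisons of lines, with red for an adjusted p under 0.05 and a black bar for the module median; the 3 panels have their own x scales. In the panel of the control lines the proximal arm centers on 0.52 and the other assembly factors on −0.4.

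The 4 lines can be grouped in pairs in 3 ways, and for each the genes were counted whose 4 arrays of one pair all lay apart from the 4 of the other, with no test. Between the lines of the knockdown system (Pan02KD and Pan02KD-CTL) and those of the overexpression system (Pan02OE and Pan02OE-CTL), 11 members lay apart and all 11 were higher in the knockdown system, which is 21.2%, compared with 7.72% of all genes in either direction and 13.1% of genes with a line mean above background. Upward separations made up 4.02% of all genes and 6.67% of genes with a line mean above background. The 11 were Ndufa1, Ndufa2, Ndufa3, Ndufa5, Ndufa6, Ndufa9, Ndufa11, Ndufab1, Ndufb6, Ndufb7 and Ndufc2, all accessory subunits and no assembly factor or core subunit.

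The clearest of them was Ndufa1, at 11.09 to 11.31 in the knockdown system against 10.07 to 10.55 in the overexpression system. Ndufc2, which sits beside Ndufc1, read 14 to 14.51 against 13.32 to 13.54, and Ndufb7, a distal-arm subunit, read 9.87 to 10.3 against 9.12 to 9.55. Ndufab1, the acyl carrier protein of the mitochondrial matrix that is also a subunit, read 14.38 to 14.53 against 13.85 to 14.07. At the other end, Ndufa6 was apart by only 0.04 and Ndufa9 by less than 0.01. The vector system, the control particles and the history of each line cannot be told apart in this grouping.

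**Figure D5:**
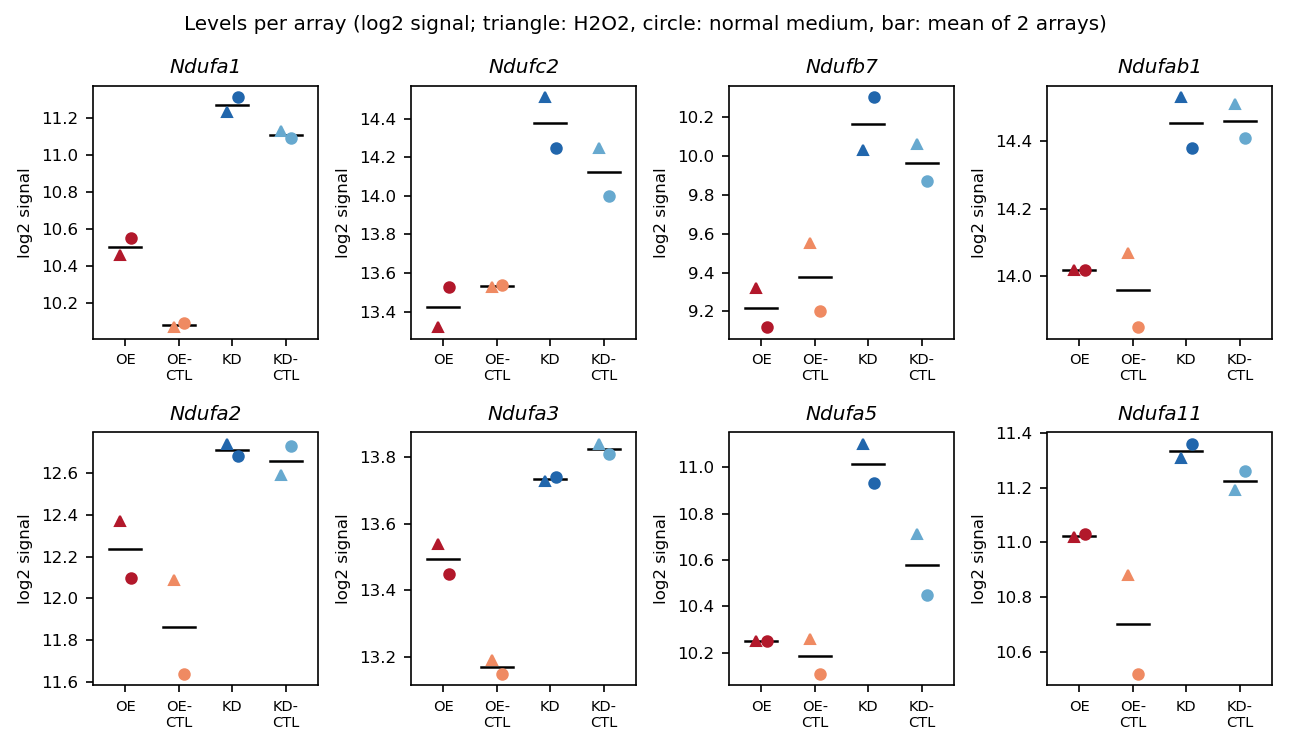
Log2 signal of 8 of the 11 accessory subunits that separate the vector systems, in the 4 Pan02 lines (x axis, OE left of OE-CTL and KD left of KD-CTL), with a triangle for the array with H2O2, a circle for normal medium and a bar for their mean; each panel has its own y axis. In every panel all 4 KD and KD-CTL points lie above all 4 OE and OE-CTL points, by 0.54 log2 units in Ndufa1 and 0.16 in Ndufa11.

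Pan02OE with Pan02KD-CTL lay apart from Pan02OE-CTL with Pan02KD in 15 members (28.8%), compared with 18.1% of all genes (8.21% higher and 9.88% lower) and 31.1% of genes with a line mean above background. Of these, 4 were higher in Pan02OE and Pan02KD-CTL (Ndufa10, Ndufb3, Ndufb5 and Ndufc1) and 11 were lower (Ndufaf4, Ndufaf5, Ndufaf7, Ndufaf8, Ndufb4, Ndufb4b, Ndufb10, Ndufs3, Ndufs4, Ndufs8 and Ndufv1), or 10 with the near-copy pair as 1 signal. Ndufaf5 had the joint widest gap, at 7.95 to 8.92 in the first pair against 9.49 to 10.1 in the second, together with Ndufb4, at 13.73 to 13.84 against 14.42 to 14.79. The gaps of Ndufv1 and Ndufb3 were 0.02 and 0.01. Between the modified lines (Pan02OE and Pan02KD) and the controls no member lay apart, compared with 3.47% of all genes and 4.3% of those with a line mean above background.

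Culture with H2O2 did not change the level of any member detectably. No member and none of the 19505 genes passed the test of H2O2 against normal medium (0% called; limma, Benjamini-Hochberg), and 1 member and 1231 genes had unadjusted p under 0.05. The median difference over members was −0.01. The 1 member was Ndufv3, which read 6.08, 6.64, 6.28 and 6.87 with H2O2 in Pan02OE, Pan02OE-CTL, Pan02KD and Pan02KD-CTL, against 6.57, 7.04, 7.03 and 7.13 in normal medium. It was lower with H2O2 within every line, and every value is in the background range. The fitted difference was −0.48 (SE 0.12, limma adjusted p = 0.74).

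The next members in order of p were Ndufaf8 and Ecsit. Ndufaf8 read 8.53, 8.78, 8.84 and 8.01 with H2O2 in the same order of lines, against 8.59, 8.78, 9.16 and 8.7 in normal medium, a difference of −0.27 (SE 0.14, adjusted p = 0.79) that comes mostly from Pan02KD-CTL. Ecsit, an MCIA member that also serves in Toll-like receptor signaling, read 8.62, 8.6, 8.99 and 8.57 with H2O2, against 8.12, 8.48, 8.9 and 8.37 in normal medium, a difference of 0.23 (SE 0.12, adjusted p = 0.79). The H2O2 values of Ecsit were higher within each of the 4 lines, and those of the 5 MCIA genes were on average at or above normal medium. Within single lines, the widest changes were Ndufaf3 in Pan02OE-CTL (0.83) and Ndufv3 in Pan02KD (−0.75), each from 1 array per medium. The differences between lines were alike in the media: across members the Pearson r between H2O2 and normal medium was 0.85 for Pan02OE over its control and 0.75 for Pan02KD over its control, as a description.

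The rest of the respiratory chain gives the context. Of 41 genes of complexes II to V and cytochrome c, 10 were higher and 1 lower in Pan02OE than in Pan02OE-CTL (26.8%, compared with 16.5% of all genes and 31.4% of those above background), with a median of 0.23 compared with 0.1 for complex I. The highest were Uqcrh of complex III (1.16, SE 0.19, limma adjusted p = 0.003) and Cox7a2 of complex IV (1.07, SE 0.16, limma adjusted p = 0.0017). The lower one was Cox7a2l, which helps join complexes III and IV into supercomplexes (−0.7, SE 0.15, limma adjusted p = 0.012). In the line labelled Pan02KD, 1 of the 41 was higher than in Pan02KD-CTL, again Cox7a2l (1.06, SE 0.15, limma adjusted p = 0.0019), and 1 was lower, Atp5g3, a c subunit of ATP synthase (−0.61, SE 0.16, limma adjusted p = 0.032). These are 4.88% of the list, compared with 13.6% of all genes and 26.3% of those above background. Cox7a2l was thus lower in Pan02OE and higher in Pan02KD, as Ndufb4 and Ndufaf5 were. Between the control lines, 13 of the 41 were higher and 1 lower in Pan02KD-CTL (34.1%, compared with 16.9% of all genes and 32% of those above background).

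Of 10 further genes with known parts in complex I assembly, Tmem70 was lower in Pan02OE, where it lay in the background range (−0.82 as a bound, SE 0.16, limma adjusted p = 0.007). Aifm1, needed for the import of complex I proteins through Chchd4, was lower in the line labelled Pan02KD (−1.05, SE 0.17, limma adjusted p = 0.0041), as was Dmac2 (−0.7, SE 0.15, limma adjusted p = 0.015). All of these genes also separated the control lines. Pan02KD-CTL was above Pan02OE-CTL in Aifm1 (1.11, limma adjusted p = 0.0022) and Dmac2 (0.74, limma adjusted p = 0.0094), and below it in Tmem70 (−0.97 as a bound, limma adjusted p = 0.0027). Mean Aifm1 was 11.75 in Pan02KD-CTL, against 10.7 in Pan02KD, 10.64 in Pan02OE-CTL and 11.04 in Pan02OE. Mean Tmem70 was 8.07 in Pan02OE-CTL, against 7.25 in Pan02OE, 7.48 in Pan02KD and 7.1 in Pan02KD-CTL. Among 8 regulators of respiratory-chain genes, Ppargc1a, the coactivator PGC-1 alpha, read 13.46 with and 13.91 without H2O2 in Pan02OE, against 10.52 with and 10.46 without H2O2 in Pan02OE-CTL, a rise of 3.19 (SE 0.19, limma adjusted p = 8.2e-06). In the arrays labelled Pan02KD it read 9.78 with and 9.81 without H2O2, against 14 with and 13.77 without H2O2 in Pan02KD-CTL, a difference of −4.09 (SE 0.19, limma adjusted p = 3.1e-06). Ppargc1a was thus high in Pan02OE and Pan02KD-CTL and low in Pan02OE-CTL and Pan02KD. In the same comparisons the median complex I difference was 0.1 and 0.17, and that of complexes II to V was 0.23 and near 0. Single members went both ways, with 4 higher and 11 lower in the pairing of Pan02OE with Pan02KD-CTL given above. The relation of any of these genes to Ppargc1a was not tested. Ppargc1b, a relative of Ppargc1a, was lower in Pan02OE (−1.21, SE 0.16, limma adjusted p = 0.001).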

How the data were processed

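The authors sent RNA of the 8 cultures for Clariom S mouse arrays and deposited log2 signals per probe set. The submitters' processing notes give only the software, Transcriptome Analysis Console; its version and its summarization and normalization settings are not stated. The series lists 9 samples, and the column of a manufacturer control RNA is empty and was not used. Of 28846 probe sets 22206 are for genes, and 19572 of these have 1 symbol in the platform annotation, 0 several and 2634 none; the probe set with the highest mean was kept per gene, leaving 19505 genes. Entrez identifiers changed 0 symbols. Array medians were 6.51 to 6.58 and no further scaling was applied.

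Line and medium were fitted as additive terms over the 8 arrays with limma 3.58.1 in R 4.3.3 (lmFit, contrasts, eBayes; 3 residual and 6.2 prior degrees of freedom), with Benjamini-Hochberg adjustment over all 19505 genes and a call at an adjusted p under 0.05. The script was tested on simulated data. Named are up to 6 called members per direction and comparison with the same sign in both media, members called in both line comparisons, the 3 lowest p for H2O2 and the nuclear core subunits. Members called beyond these, module medians and neighboring genes were described after their values were seen. Promoter windows and neighbors come from RefSeq, GRCm38.p6. Members and lists were chosen with earlier results of these data known. Alternatives covered scaling, low-signal filters, probe sets per gene, the variance model, the medium term, the arrays fitted, each medium alone, and leaving out each array.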

Additional observations from a re-analysis of the deposited data

Results flagged for a closer look

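The difference of Pan02OE from Pan02OE-CTL was set against the difference of the line labelled Pan02KD from Pan02KD-CTL in a single limma contrast, the first minus the second. For 12 of the 52 genes (23.1%, compared with 22.3% of all genes and 41.6% of those with a line mean above background) the comparisons differed at an adjusted p under 0.05, with Benjamini-Hochberg adjustment over 19505 genes. The contrast was negative for the assembly factors Ndufaf5 (−2.51, SE 0.3, adjusted p = 0.00034), Ndufaf7 (−1.99, SE 0.27, adjusted p = 0.0007) and Ndufaf4 (−1.36), for the near-copy pair Ndufb4 (−1.62, SE 0.22) and Ndufb4b (−1.56), and for Ndufb10 (−1.24), Ndufs8 (−1.1), Ndufaf8 (−0.87) and Ndufs4 (−0.87). It was positive for Ndufb5 (1.64, SE 0.22, adjusted p = 0.00062), Ndufc1 (1.14, SE 0.22, adjusted p = 0.005) and Ndufb3 (0.73). All 12 had the same sign in both media. Ndufaf8 stood just inside the threshold (SE 0.27, limma adjusted p = 0.049). The contrast calls of Ndufaf8, Ndufs8 and Ndufs4 were not checked one by one without single arrays. The contrast of Ndufb3 was not called without any 1 of the 8 arrays, and that of Ndufb10 not without the Pan02KD array in normal medium or the Pan02OE-CTL array with H2O2 (adjusted p up to 0.059), whereas Ndufaf5, Ndufaf7, Ndufaf4, Ndufb4, Ndufb4b, Ndufb5 and Ndufc1 were called without any single array. The comparisons use different control lines, which differ in the same genes, so the vector system and the modification of each line cannot be told apart; the arrays show no fall of Nlrx1 in the line labelled Pan02KD.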

How the results depend on the processing

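The largest differences, those of Ndufaf5, Ndufaf7 and Ndufb5 in Pan02OE, kept their sign and call under all alternatives with a test (Ndufaf5 −2.08 to −1.39, Ndufaf7 −1.59 to −1.2, Ndufb5 1.1 to 1.39). Counts of called members changed more. In Pan02OE over Pan02OE-CTL they were 5 higher and 8 lower when genes under the 40th percentile of mean signal were left out, and 6 higher and 7 lower both with genes above background alone and with trended, robust eBayes. In Pan02KD over Pan02KD-CTL, 12 were higher with genes above background alone, and 1 was lower with all probe sets tested and 0 with only the arrays of these lines. In Pan02KD-CTL over Pan02OE-CTL, 16 were higher above background and 14 with trended eBayes. For the contrast of the comparisons, 5 were higher with arrays centered on their medians, with either filter and without a medium term, and 6 with trended eBayes. Leaving out 1 array gave 1 to 2 higher and 2 to 6 lower in Pan02OE, 0 to 8 higher and 0 to 3 lower in Pan02KD, 3 to 7 higher and 1 to 5 lower between the controls, and 2 to 4 higher and 6 to 10 lower for the contrast. The filters test fewer genes; otherwise the cause was not tested. In Pan02KD, Ndufaf5 lost its call with cyclic loess and with all probe sets. Small differences changed sign in Pan02OE: Ndufs1 gave 0.04 with centered arrays, 0.03 with cyclic loess, 0.03 with H2O2 alone and 0.07 to 0.11 without 1 array, and Ndufs7 gave 0.01 with centered arrays and 0.02 to 0.03 without 1 array. In Pan02KD, Ndufs7 gave 0.01 without 1 array. No member was called for H2O2 under any alternative tested. Medium is a term of the fit, which pairs the arrays of each medium across lines. No paired analysis was possible beyond this, because each line had only 1 array per medium. Members near background, such as Ndufv3, Ndufaf1, Ndufaf6 and Ndufaf7, give only bounds where a line lies within it.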

Other observations

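Some other complex I genes share a start region with a gene on the opposite strand, and the partners differed in whether they moved alike. Ndufb3 and Fam126b start 64 bases apart, and both were lower in the arrays labelled Pan02KD than in Pan02KD-CTL: Ndufb3 by −0.56 (SE 0.16, limma adjusted p = 0.046) and Fam126b by −0.98 (SE 0.16, limma adjusted p = 0.0043). Ndufa4 and Phf14 start 379 bases apart. Phf14 was lower in Pan02OE than in Pan02OE-CTL (−0.86, SE 0.16, limma adjusted p = 0.0052) while Ndufa4 gave 0.45 (SE 0.16, limma adjusted p = 0.092). In Pan02KD over Pan02KD-CTL both were positive, with Phf14 at 0.56 (SE 0.16, limma adjusted p = 0.048) and Ndufa4 at 0.26 (SE 0.16, limma adjusted p = 0.37). Ndufa7 and the ribosomal protein gene Rps28 start 10 bases apart, and in Pan02OE Rps28 was higher by 0.52 (SE 0.15, limma adjusted p = 0.041) while Ndufa7 gave 0.11 (SE 0.22, limma adjusted p = 0.8). These pairs were picked after their values were seen.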
